A study of Bos grunniens and Bos grunniens x Bos taurus with 2 samples.

Results

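The genes described here are the members of the Notch, Wnt and Hedgehog signalling pathways that the yak annotation names. They were chosen by symbol alone, as the Notch receptors, their Jagged and Delta-like ligands, the HES and HEY targets, the WNT ligands, Frizzled receptors, DKK and SFRP inhibitors, the Hedgehog genes PTCH1, SMO and HHIP, the GLI factors, and the Hedgehog ligands DHH and IHH. The rule found 62 of 26961 annotated genes. Droplet-based single-cell RNA sequencing had been performed on testis of 1 healthy 4-year-old yak (*Bos grunniens*) and on testis of a sexually mature cattle-yak, the hybrid of yak and cattle, giving 1 library each. Both tissues had been frozen, thawed and digested with enzymes, and no treatment of either animal is named. The yak library held 11991 cells and the cattle-yak library 8930 cells, with medians of 2533 and 3155 UMIs, the unique molecular identifiers that tag each captured transcript. With 1 library per kind of animal, no test between them was possible, and every difference is one between these libraries.

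All 3 pathways carry signals between neighbouring cells. In Notch signalling, a ligand on the surface of a cell triggers the cleavage of a receptor on its neighbour, and the freed fragment switches on genes such as the HES and HEY repressors. This exchange is known for separating arteries from veins and for maturing the smooth muscle around vessels. In the Wnt pathway, secreted WNT proteins bind Frizzled receptors, while DKK and SFRP proteins are known mainly as inhibitors of the pathway. In the Hedgehog pathway, a secreted ligand binds PTCH1, which releases SMO and activates GLI factors, and PTCH1, GLI1 and HHIP are themselves switched on by the signal. In the testis the Hedgehog ligand is known to come from Sertoli cells and to act on interstitial cells.

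Cells were kept by the study's limits on genes, UMIs and mitochondrial share, which left 10324 yak and 7092 cattle-yak cells, and clustered in each library without the 62 members. Clusters were named by marker genes, with the ending -like to mark names that rest on expression alone. Endothelial cells (EC-like) were divided into arterial, lymphatic and other cells, and contractile cells into pericyte-like cells and smooth muscle cells (MC-like). A further cluster led by TNNI1 and CYP11A1 held smooth muscle genes together with PDGFRA, which stood at 1395 CPM there in yak against 1.63 CPM in MC-like cells, and is called the TNNI1/CYP11A1 cluster. Levels are summed UMIs of a class scaled to counts per 1000000 UMIs of that class (CPM), and ranges in parentheses are exact 95% Poisson intervals, which cover counting error only. Reads come from the transcript's end, so levels were compared between cells and not between genes. The libraries shared 24 barcodes. A shallow yak cluster of 662 cells mixed endothelial with muscle genes (PECAM1 at 588 CPM and MYH11 at 1615 CPM), and deep clusters of 303 yak and 253 cattle-yak cells mixed endothelial with pericyte genes. These mixed clusters and the cattle-yak cluster led by ICAM5 and EPHA3 were counted among the other cells and enter no class. A lymphocyte (T/NK-like) cluster of 54 cattle-yak cells with some stromal genes stayed in its class.

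Of the 62 members, 33 had at least 50 counts over the kept yak cells and 34 over the kept cattle-yak cells. A gene was called enriched in a class where it stood at least 2-fold above all other kept cells of its library, with 1 CPM added to each side. All 33 yak members above the minimum were enriched in at least 1 of 10 classes, as were 69.8% of all genes above it. In cattle-yak all 34 were, against 68.6% of all genes. Since a gene could reach the minimum through the class in which it was high, the place of each gene is more informative than these totals. The stromal-like class had the largest number in yak, with 17 members enriched (background 8.10%). Its median log2 ratio over the 33 members was 1.28, against -0.23 over all genes. The TNNI1/CYP11A1 cluster followed with 14 (background 8.14%), then arterial EC-like cells with 8 (background 7.21%) and pericyte-like cells with 7 (background 4.75%). Other EC-like cells had 6 (background 6.75%), MC-like cells 6 (background 5.55%) and lymphatic EC-like cells 4 (background 5.31%). Germ-like cells had 2, DKK3 and NOTCH4, where 33.0% of all genes were enriched. No member was enriched in macrophage-like cells (background 8.25%) or in T/NK-like lymphocytes (background 7.51%). In cattle-yak the stromal-like class again led with 17 members (background 6.39%), at a median log2 ratio of 0.96 against -0.14 over all genes. The second place of the TNNI1/CYP11A1 cluster did not hold there, with 4 of 34 members enriched (background 4.78%) and a median of -0.72, against 0.27 in yak. Those 4 were GLI1, PTCH1, HHIP and FZD2. Stromal-like cells, which are among the cells this cluster is compared with, made up 27.3% of kept cattle-yak and 7.58% of kept yak cells. The part of this make-up in the change of place was not tested. Arterial EC-like cells of cattle-yak had 8 members (background 10.2%), other EC-like cells 7 (background 8.00%), MC-like cells 7 (background 6.16%), pericyte-like cells 4 (background 4.83%), lymphatic EC-like cells 4 (background 4.88%) and germ-like cells 2, JAG2 and WNT5A (background 31.5%), with none in macrophage-like (background 10.1%) or T/NK-like cells (background 6.27%).

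**Figure D1:**
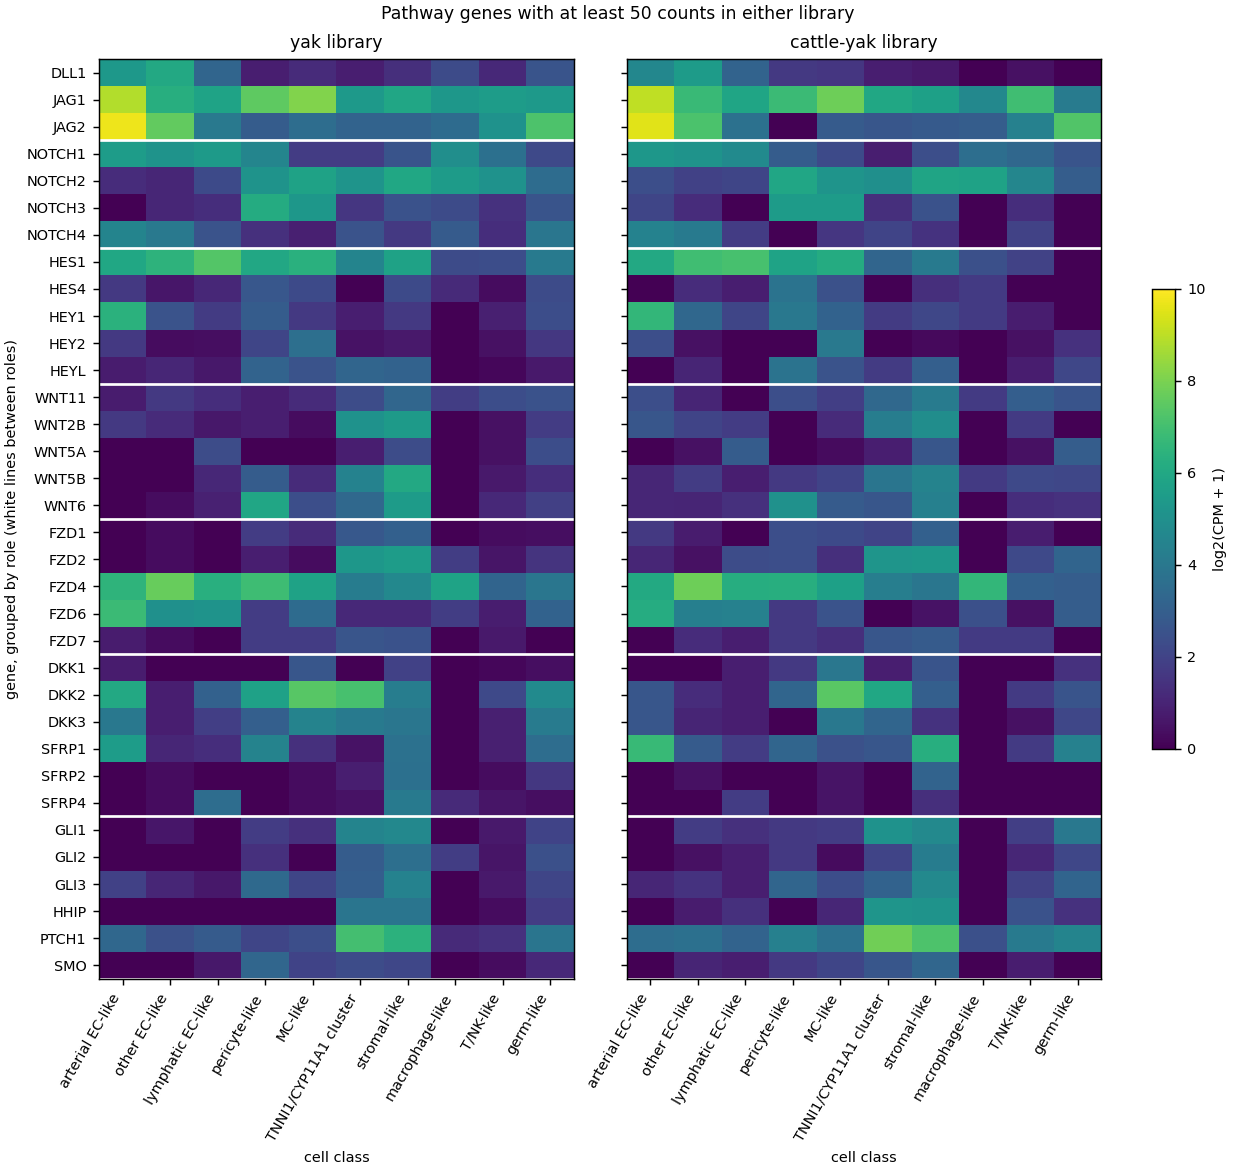
Level of 34 members with at least 50 counts in either library (rows, grouped by role) in 10 cell classes (columns), as log2(CPM + 1), for yak on the left and cattle-yak on the right. JAG2 and JAG1 are brightest in arterial EC-like cells, and PTCH1 and GLI1 are brightest in the TNNI1/CYP11A1 cluster and stromal-like cells of both libraries.

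The Notch ligands divided the endothelium. JAG2 reached 857 CPM (810 to 907) in the 236 arterial EC-like cells of yak and 751 CPM (696 to 809) in the 172 of cattle-yak. Other EC-like cells had 192 CPM (178 to 206) and 144 CPM (130 to 158), and lymphatic EC-like cells 15.6 and 12.1 CPM. The intervals of the arterial and other endothelial cells did not overlap in either library. After every cell had been thinned to 1000 UMIs, 50.9% of arterial EC-like yak cells (exact binomial 95% interval 44.2 to 57.5) and 41.5% of those of cattle-yak held a JAG2 UMI. The shares in T/NK-like cells, a class where free RNA may account for UMIs, were 3.39% and 2.34%. Before thinning, at median depths of 5286.5 and 4655.5 UMIs, the arterial shares were 85.2% and 78.5%, and at depths of 1939 and 2280 UMIs those of T/NK-like cells were 6.57% and 4.60%.

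JAG1, the other Jagged ligand, was also highest in arterial EC-like cells, at 462 CPM (427 to 499) in yak and 533 CPM (487 to 583) in cattle-yak. It differed from JAG2 in its second place, which was smooth muscle. MC-like cells held 273 CPM (256 to 290) and 223 CPM (210 to 238), and pericyte-like cells 181 and 111 CPM. JAG2 in the same MC-like cells stood at 10.9 and 6.37 CPM. DLL1, a Delta-like ligand, had the reverse order within the endothelium. Its level was 65.2 CPM (57.2 to 74.0) in other EC-like cells against 39.8 CPM (30.1 to 51.7) in arterial cells of yak, and 43.5 CPM (36.2 to 51.9) against 23.9 CPM (15.0 to 36.2) in cattle-yak. The intervals did not overlap in yak, and in cattle-yak they touched within rounding.

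Among the receptors, NOTCH1 was endothelial, with 45.5 CPM in arterial, 34.1 CPM in other and 42.2 CPM in lymphatic EC-like cells of yak, and 38.0, 34.1 and 26.7 CPM in cattle-yak. The intervals of the 3 endothelial classes overlapped in each library. NOTCH4 stood at 22 and 20.6 CPM in arterial EC-like cells and at 15.7 and 16.2 CPM in other EC-like cells, again with overlapping intervals, and at 4.91 and 2.43 CPM in lymphatic cells. NOTCH3, the receptor known from vascular smooth muscle, was mural. It measured 69.2 CPM (55.3 to 85.4) in pericyte-like and 38.4 CPM (32.3 to 45.2) in MC-like cells of yak, but 43.5 CPM (26.6 to 67.2) and 44.3 CPM (38.4 to 50.9) in cattle-yak, where the classes did not differ beyond counting error. NOTCH2 was spread over non-endothelial cells, at 60.5 and 57.0 CPM in stromal-like, 33.8 and 58.7 CPM in pericyte-like, 53.6 and 34.9 CPM in MC-like, 43.4 and 53.7 CPM in macrophage-like and 33.1 and 23.1 CPM in T/NK-like cells of yak and cattle-yak. In arterial EC-like cells NOTCH2 was at 1.42 and 4.35 CPM, so NOTCH1 and NOTCH2 were high in different classes.

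**Figure D2:**
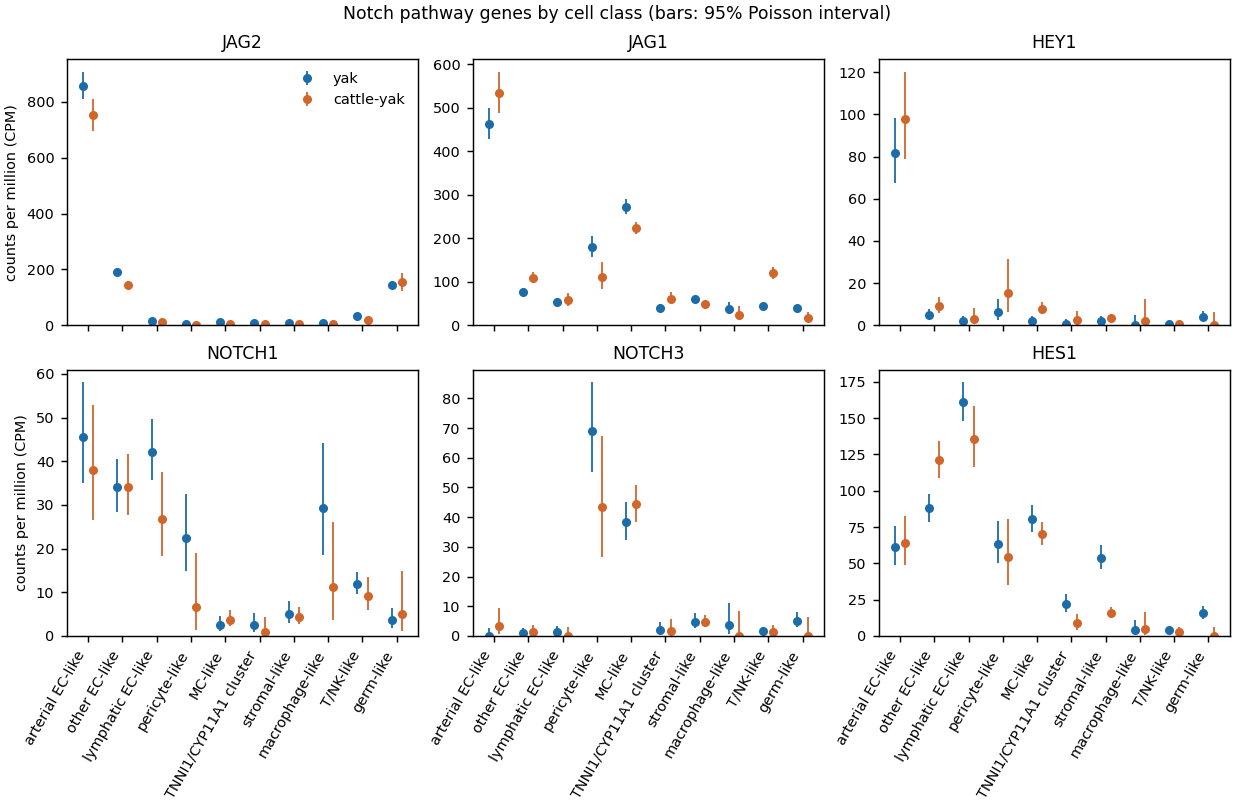
Levels in CPM (vertical axis) of 6 Notch pathway genes in 10 cell classes (horizontal axis), yak in blue and cattle-yak in orange, with 95% Poisson intervals. JAG2 and HEY1 stand apart in arterial EC-like cells, NOTCH3 in pericyte-like and MC-like cells, and HES1 is highest in lymphatic EC-like cells of both libraries.

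The target genes followed separate vessel classes. HEY1 measured 81.7 CPM (67.5 to 98.1) in arterial EC-like cells of yak against 4.87 CPM (2.89 to 7.70) in other EC-like cells, and 97.8 CPM (78.6 to 120) against 9.13 CPM (5.96 to 13.4) in cattle-yak. HEY2, its close relative, was highest in MC-like cells instead, with 11.4 CPM (8.23 to 15.4) and 15.4 CPM (12 to 19.4). HES1 was broad. Lymphatic EC-like cells had the highest level, 161 CPM (148 to 175) in yak and 136 CPM (116 to 158) in cattle-yak, and other EC-like cells followed with 87.9 CPM (78.6 to 98.0) and 121 CPM (109 to 135). These intervals were apart in yak and overlapped in cattle-yak. HES4, another repressor of the family, was low in somatic cells, with 5.63 CPM in pericyte-like cells of yak and 13.1 CPM in those of cattle-yak. HEYL, known as a target in mural cells, also had few counts. In yak the TNNI1/CYP11A1 cluster (8.51 CPM), pericyte-like (8.04 CPM) and stromal-like cells (7.79 CPM) did not differ beyond counting error, and in cattle-yak pericyte-like cells had 13.1 CPM from 6 counts. Across the 10 classes, NOTCH3 and HEYL gave a Pearson correlation of log2(CPM + 1) of 0.56 in yak and 0.70 in cattle-yak, over points that share a library.

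JAG1 was also found in lymphocytes, unevenly. In the yak T/NK-like cluster led by ICOS and IL7R, genes known from helper and memory T cells, JAG1 stood at 105 CPM, against 11.2 to 26.3 CPM in the other 4 T/NK-like clusters. In the cattle-yak cluster of 336 cells with the highest IL7R level (1260 CPM), it reached 340 CPM, against 5.35 to 66.7 CPM in the other T/NK-like clusters. Those others included a cluster of 54 cells that was also led by IL7R. In it 2 genes of the peritubular and 1 of the stromal marker list were enriched too. Its median depth was 4175.5 UMIs, against 2149 to 2345 UMIs in the other T/NK-like clusters of cattle-yak. In both libraries JAG1 was thus highest in an IL7R-rich cluster, but in cattle-yak not every cluster led by IL7R had this level. JAG1 over all T/NK-like cells was 120 CPM in cattle-yak and 45.0 CPM in yak, a log2 difference of 1.40 (interval 1.2 to 1.64). The cluster with the highest JAG1 held 336 of 1109 T/NK-like cells in cattle-yak and 1151 of 3743 in yak.

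The Wnt ligands were mainly stromal. WNT5B, a ligand of the non-canonical branch, had 64.5 CPM (56.0 to 73.9) in stromal-like cells of yak against 20.7 CPM in the TNNI1/CYP11A1 cluster, and 21.3 against 14.0 CPM in cattle-yak. WNT2B had 43.0 CPM (36.1 to 50.8) and 29.3 CPM (24.8 to 34.4) in stromal-like cells, with the TNNI1/CYP11A1 cluster next at 33.6 and 17.9 CPM. WNT11 was at 8.73 and 17.0 CPM in stromal-like cells. WNT6 belonged to both pericyte-like cells (59.5 CPM, 46.7 to 74.7, in yak and 32.6 CPM, 18.3 to 53.8, in cattle-yak) and stromal-like cells (43.3 and 19.7 CPM). In SC-like cells, a small class with Sertoli genes, WNT6 had 4 counts in 32 yak cells and 12 counts in 104 cattle-yak cells, which is 74.3 CPM (20.2 to 190) and 51.8 CPM (26.8 to 90.6). WNT5A reached 50 counts in the cattle-yak library only, where lymphatic EC-like cells had 6.48 CPM, germ-like cells 6.75 CPM and stromal-like cells 5.47 CPM.

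The Frizzled receptors had a vascular and a stromal set. FZD4, known as an endothelial receptor that guides vessel growth, was highest in other EC-like cells, at 204 CPM (190 to 219) in yak and 222 CPM (205 to 240) in cattle-yak. It was not confined to endothelium, with 117 and 76.1 CPM in pericyte-like cells and 96.3 CPM in macrophage-like cells of cattle-yak. Arterial EC-like cells had 89.6 CPM (74.6 to 107) and 66.3 CPM (50.7 to 85.1), less than other EC-like cells. FZD6 had the opposite order, with 111 CPM (94.2 to 130) and 72.8 CPM (56.4 to 92.4) in arterial EC-like cells against 31.4 and 19.0 CPM in other EC-like cells. FZD2 was at 45.2 and 38.1 CPM in stromal-like cells and at 38.5 and 35.7 CPM in the TNNI1/CYP11A1 cluster, and at 3.67 CPM or less in arterial, other EC-like, MC-like and T/NK-like cells of both libraries. FZD1 (7.48 and 7.42 CPM in stromal-like cells) and FZD7 (4.68 and 6.25 CPM) lay in the same classes at low counts.

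The Wnt inhibitors were divided among contractile, stromal and arterial cells. DKK2 was the inhibitor of smooth muscle, with 167 CPM (154 to 181) in MC-like cells of yak and 174 CPM (162 to 187) in cattle-yak. The TNNI1/CYP11A1 cluster held 136 CPM (122 to 151) and 60.6 CPM (47.9 to 75.6). DKK1 was above the minimum in cattle-yak only, at 14.7 CPM (11.4 to 18.7) in MC-like cells. SFRP1, which binds WNT proteins, was arterial in both libraries, at 44.8 CPM (34.4 to 57.3) and 105 CPM (85.4 to 129). In cattle-yak it was enriched in stromal-like cells too, at 75.9 CPM (68.6 to 83.9) from 389 counts, where yak had 12.2 CPM (8.65 to 16.6). It was also found in a small cluster led by WFDC2, an epithelial gene, at 50.9 CPM (26.3 to 89.0) in 68 yak cells and 65.9 CPM (37.7 to 107) in 46 cattle-yak cells. SFRP2 had 11.8 and 8.20 CPM in stromal-like cells. SFRP4 had 16.2 CPM (12.1 to 21.3) in stromal-like and 11.0 CPM in lymphatic EC-like cells of yak. DKK3 was at 21.2 and 15.1 CPM in MC-like cells.

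The Hedgehog response genes were highest in the TNNI1/CYP11A1 cluster and in stromal-like cells. PTCH1, the receptor, measured 126 CPM (113 to 141) in that cluster and 84.8 CPM (75.0 to 95.5) in stromal-like cells of yak, and 225 CPM (200 to 253) and 145 CPM (135 to 156) in cattle-yak. In the same order, GLI1, the transcription factor most used as a readout of the pathway, had 21.9 and 24.6 CPM in yak and 33.4 and 25.2 CPM in cattle-yak, with overlapping intervals between the classes in each library. HHIP, a decoy that binds the ligand, had 13.8 and 13.7 CPM in yak and 36.5 and 33.8 CPM in cattle-yak. In yak no HHIP count was found in pericyte-like or MC-like cells, where 3 counts would have been 2.41 and 0.82 CPM. Among the 10 classes, GLI2 (11.5 and 17.4 CPM) and GLI3 (20.6 and 24.8 CPM) were highest in stromal-like cells. In the TNNI1/CYP11A1 cluster they stood at 6.49 and 3.11 CPM and at 6.89 and 7.77 CPM. Deep germ cell clusters, described below, held both genes as well. SMO, the signal transducer, was low everywhere, with 8.85 CPM (4.42 to 15.8) in pericyte-like cells of yak and 8.98 CPM in stromal-like cells of cattle-yak. Across the 10 classes, GLI1 correlated with PTCH1 at 0.87 in yak and 0.90 in cattle-yak, and with HHIP at 0.94 and 0.86, over points that share a library.

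**Figure D3:**
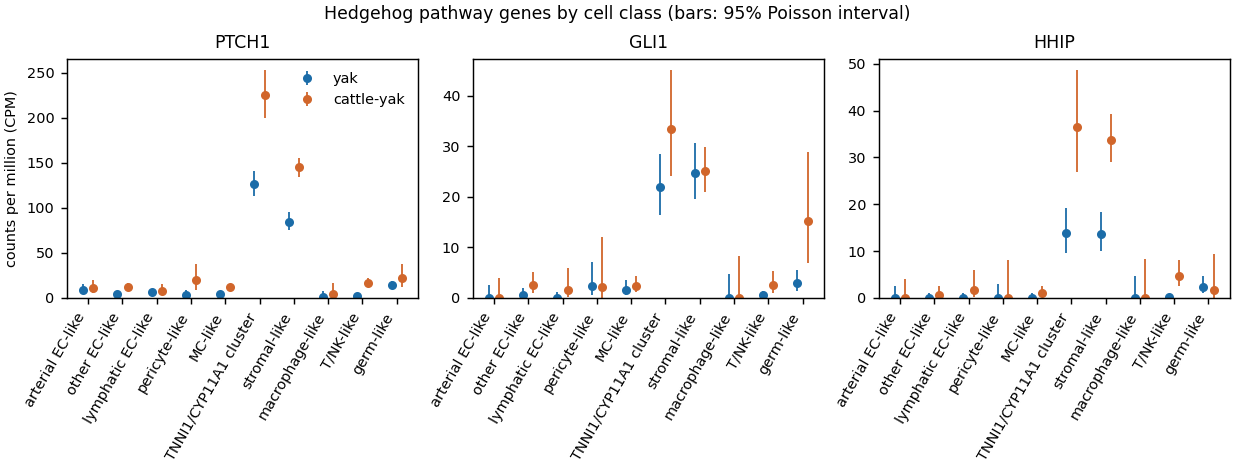
Levels in CPM (vertical axis) of PTCH1, GLI1 and HHIP in 10 cell classes (horizontal axis), yak in blue and cattle-yak in orange, with 95% Poisson intervals. All 3 genes stand out in the TNNI1/CYP11A1 cluster and stromal-like cells, and PTCH1 is higher in cattle-yak in both.

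The ligands of this pathway had few counts. DHH, the ligand of Sertoli cells, had 20 counts in all deposited yak cells and 13 in cattle-yak, and IHH had 16 and 2. No DHH count fell in SC-like cells. Their name rests on 3 enriched Sertoli genes in each library, out of the 9 of 18 listed genes that the annotation names. There the floor of 3 counts was 55.7 CPM in the 32 yak cells and 13.0 CPM in the 104 cattle-yak cells, so a lower level was not detectable at this depth. Of the 14 DHH counts in kept yak cells, 5 lay in arterial EC-like cells.

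Of the other pathway genes, listed by pathway, 20 Notch, 25 Wnt and 11 Hedgehog genes passed the minimum in yak and 17, 23 and 11 in cattle-yak. In stromal-like cells 3, 7 and 5 of these were enriched in yak (background 8.10%) and 1, 3 and 4 in cattle-yak (background 6.39%). Those of yak included the Hedgehog co-receptors GAS1 (log2 ratio 3.14 in yak and 2.31 in cattle-yak), CDON (2.75 and 2.48) and BOC (2.20 and 1.83), the Wnt amplifier RSPO3 (3.07 and 2.51) and the Wnt target AXIN2 (1.45 and 1.80). In MC-like cells the largest Wnt ratio was that of NKD1, an antagonist inside the cell, at 3.45 and 3.13. In T/NK-like cells the Fringe enzymes MFNG (1.67 and 1.68) and LFNG (1.58 and 2.23), which modify Notch receptors, and the Wnt factors TCF7 (2.38 and 2.89) and LEF1 (1.66 and 2.89), which T cells use in their development, were enriched in both libraries.

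JAG2 counts were found in all 5 germ cell types that the study named in yak. The level was 307 CPM (226 to 408) in spermatogonial stem cells (SSC), 147 CPM (118 to 181) in spermatogonia (SPG), 98.3 CPM (65.3 to 142) in early spermatocytes, 29.4 CPM (16.1 to 49.3) in late spermatocytes and 66.3 CPM (39.3 to 105) in spermatids (SPT). The 84 cells typed as SSC also held DKK2 at 307 CPM, JAG1 at 189 CPM and HEY1 at 32.7 CPM, together with the endothelial genes PECAM1 at 1182 CPM and BMX at 183 CPM, which in arterial EC-like cells stood at 2053 and 235 CPM. The study named BMX as a marker of SSC and placed its protein in them by immunohistochemistry. The germ cell gene UCHL1 was at 281 CPM in the 84 typed cells and at 1028 CPM in SPG. Endothelial and muscle RNA was present in the other types as well. PECAM1 and the smooth muscle gene MYH11 stood at 160 and 1265 CPM in SPG, at 14.0 and 207 CPM in early spermatocytes, at 143 and 426 CPM in late spermatocytes and at 121 and 490 CPM in SPT, which had median depths from 906 to 1799.5 UMIs. In the deeper SPT-like cluster described next (median 7591.5 UMIs), JAG2 was at 5.99 CPM and PECAM1 at 11.0 CPM, against 66.3 and 121 CPM in the typed SPT. A type from the study replaced the name of the cluster in which a cell lay. The arterial EC-like class of yak held 250 cells before this step, and 236 kept that name. The part of endothelial and muscle RNA, or of endothelial cells, in the JAG2 values of the typed cells was not tested.

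Many germ cells lay above the study's upper limits on UMIs and genes, so each whole library was also clustered with those limits removed. The germ cells then lay in 6 yak clusters, of which 5 took a germ cell name. In cattle-yak they lay in 2 clusters, of which only the SPC-like cluster took such a name. Different members were then highest in different germ cell clusters. In the yak SPG-like cluster of 111 cells led by DLK1 and PIWIL4, genes of undifferentiated spermatogonia, SFRP1 was at 89.3 CPM (76.5 to 104), the highest of the 6. This was above the 44.8 CPM (34.4 to 57.3) of arterial EC-like yak cells, and the cluster held 22.4% of the SFRP1 counts of the yak library. In the unnamed yak cluster of 253 cells led by CRABP1 and DMRT1, JAG2 was highest at 344 CPM (323 to 366), with PECAM1 at 51.0 CPM, while SFRP1 had 27.6 CPM. GLI2 was at 19.3 CPM (14.6 to 25.1) there, against 11.5 CPM (8.12 to 15.9) in stromal-like yak cells. The same CRABP1 cluster had GLI3 at 16.5 CPM and PTCH1 at 25.5 CPM, and the SPG-like cluster PTCH1 at 27.0 CPM and HHIP at 10.4 CPM. DLL3, a Delta-like protein known to act inside the cell, was highest in the SPC-like clusters, with 38.0 CPM (31.1 to 46.0) in the one led by RAD51AP2 and SYCP3, genes of meiotic prophase, and 43.0 CPM (36.6 to 50.3) in the one led by LHX1, CCDC38 and the meiotic cyclin CCNA1.

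WNT3A, a ligand of the canonical branch, had most of its counts in the latter. The LHX1 and CCDC38 cluster of 77 cells held 204 of the 289 WNT3A counts of the yak library (70.6%), at 55.5 CPM (48.2 to 63.7). The SPT-like cluster of 224 cells led by RNF151 and HMGB4 had 58 counts (20.1%), at 14.5 CPM (11.0 to 18.7). A shallow SPC-like cluster of 433 cells, with a median of 934 UMIs, had 10 counts, at 13.7 CPM (6.56 to 25.2), and the RAD51AP2 cluster had 0.73 CPM. The same SPT-like cluster had NOTCH4 at 50.4 CPM (43.7 to 57.8), DKK3 at 45.7 CPM (39.3 to 52.8) and HES4 at 15.5 CPM (11.9 to 19.8). In the other 5 yak germ clusters NOTCH4 was at 10.9 CPM or less and DKK3 at 9.58 CPM or less, and JAG2 was at 5.99 CPM in the SPT-like cluster. Of the 77 cells of the LHX1 cluster, 71 lay above the depth limits, so WNT3A had 27 counts and DLL3 45 counts among the kept yak cells.

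In cattle-yak the levels of the LHX1 and SPT-like clusters were not found. The 258 cells led by DMRT1 and SLPI had JAG2 at 146 CPM (136 to 156) and SFRP1 at 60.8 CPM (54.5 to 67.5), and the 66 SPC-like cells JAG2 at 78.7 CPM (59.8 to 102). WNT3A had 4 counts in the whole cattle-yak library. No cattle-yak cluster was named SPT-like, and the SPC-like cells had DLL3 at 10.9 CPM (4.69 to 21.4), NOTCH4 at 0 with an upper bound of 5.01 CPM, and DKK3 at 2.71 CPM. The DMRT1 cluster also held WNT5A at 18.7 CPM (15.3 to 22.6) and WNT5B at 16.2 CPM (13.1 to 19.9), against 2.41 and 1.03 CPM in the CRABP1 and DMRT1 cluster of yak and 12.5 and 4.16 CPM in its SPG-like cluster. In the cattle-yak DMRT1 cluster GLI2 was at 13.1 CPM (10.3 to 16.4), GLI3 at 11.7 CPM and PTCH1 at 33.4 CPM. Since these clusters were formed in each library alone, stage and library cannot be told apart in these values.

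**Figure D4:**
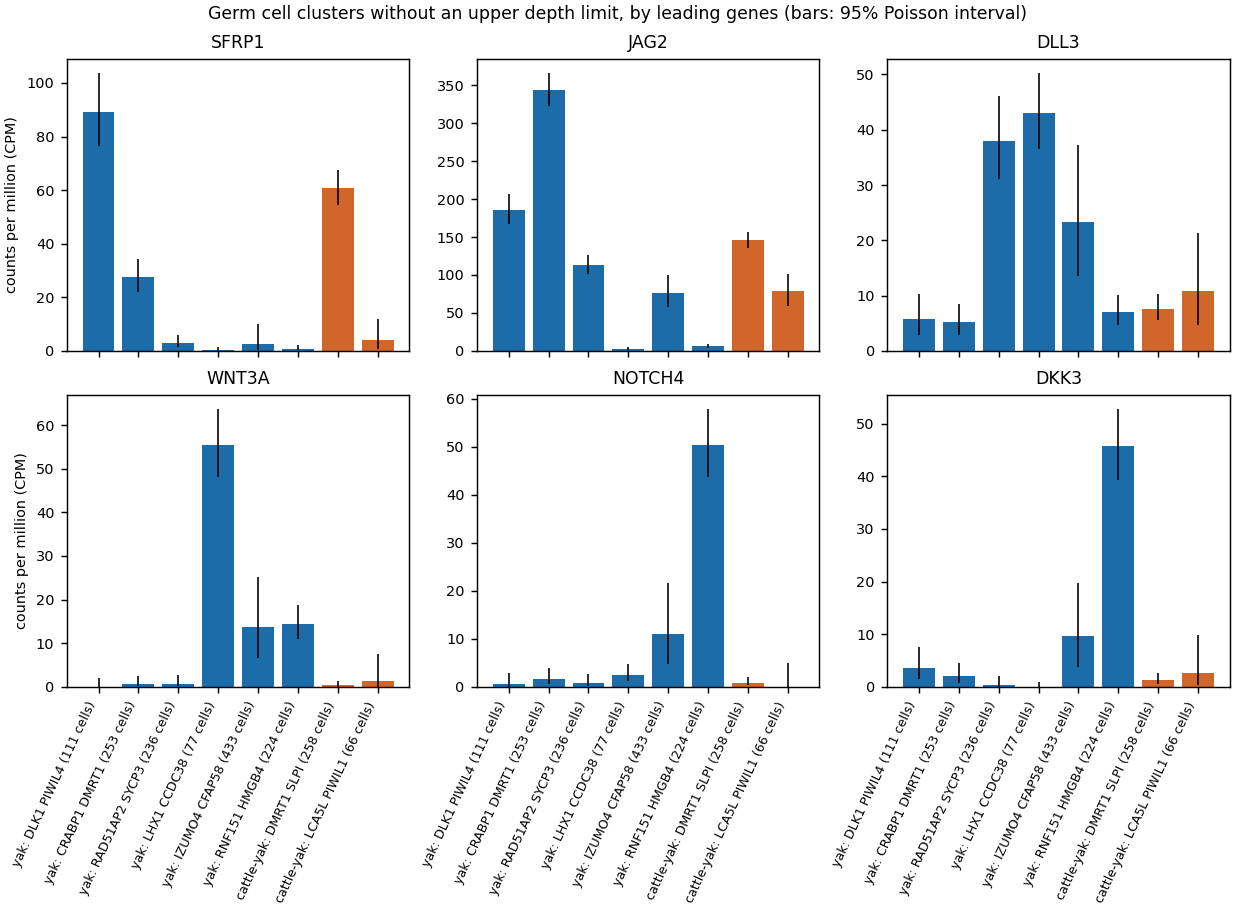
Levels in CPM (vertical axis) of 6 members in the germ cell clusters obtained without an upper depth limit (horizontal axis, by leading genes and number of cells), yak in blue and cattle-yak in orange, with 95% Poisson intervals. SFRP1 and JAG2 are high in the DLK1 and CRABP1 clusters, DLL3 in the RAD51AP2 and LHX1 clusters, WNT3A in the LHX1 cluster, and NOTCH4 and DKK3 in the RNF151 cluster.

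The place of a member was compared between the libraries by its leading class. Of 32 members with at least 50 counts in each library, 26 had the highest CPM in the same of 10 classes, as did 61.3% of all genes above that minimum. The leading class was apart from the next beyond counting error for 13 of the 32 in each library, and for 10 in both. The other 6 were FZD7, NOTCH2, HEYL, SMO, GLI1 and NOTCH3, whose leading classes were the pericyte-like, MC-like, stromal-like or TNNI1/CYP11A1 class. In cattle-yak the interval of the leading class overlapped that of the class leading in yak for all 6, and in yak the reverse held for 4, all but NOTCH2 and NOTCH3, so a change of place was not shown.

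Levels were compared between the libraries within each class, among genes with at least 50 counts over both, at a limit of 2-fold. Over all genes the median log2 ratio of cattle-yak over yak lay between -0.32 in lymphatic EC-like and -0.08 in arterial EC-like cells. Over all classes 10 pairs of member and class were higher and 14 lower in cattle-yak. Mitochondrial transcripts took 13.1% of the UMIs of the yak and 22.2% of those of the cattle-yak library, and with mitochondrial and ribosomal RNA left out of the scaling 14 pairs were higher and 11 lower. In stromal-like cells 9 of 24 members passed (background 8.88%). SFRP1 stood at 75.9 CPM in cattle-yak and 12.2 CPM in yak, a log2 ratio of 2.55 (interval of the plain ratio 2.17 to 3.16). HHIP (33.8 against 13.7 CPM, log2 1.24, 0.82 to 1.81) and SMO (8.98 against 3.43 CPM, log2 1.17, 0.42 to 2.49) were also higher in cattle-yak. PTCH1 (log2 0.77, 0.57 to 0.98) lay in the same direction within 2-fold and passed it with the other scaling, whereas GLI1 had a log2 ratio of 0.03 (-0.38 to 0.45). The 6 members higher in yak were SFRP4 (16.2 against 1.56 CPM), DKK3 (14.0 against 1.76 CPM), HES1 (53.9 against 15.8 CPM), WNT5B (64.5 against 21.3 CPM), DKK2 (18.1 against 7.22 CPM) and WNT6 (43.3 against 19.7 CPM), with log2 ratios from -2.75 for SFRP4 to -1.10 for WNT6. The WNT6 ratio was within 2-fold under 5 alternatives. The ICAM5 and EPHA3 cluster of cattle-yak, which shares stromal genes, had SFRP1 at 75.5 CPM and WNT6 at 41.3 CPM.

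In the TNNI1/CYP11A1 cluster 3 of 13 members passed (background 8.14%). HHIP was higher in cattle-yak (36.5 against 13.8 CPM, log2 1.34, 0.74 to 2.09). DKK2 was lower (60.6 against 136 CPM, log2 -1.15, -1.54 to -0.80), as was HES1 (8.54 against 21.9 CPM, log2 -1.26, -2.44 to -0.41), whose ratio became 0.29 when cells with a mitochondrial share of 20% or more were left out. The HES1 ratio was within 2-fold under 4 other alternatives. PTCH1 had a log2 ratio of 0.83 (0.60 to 1.07).

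In arterial EC-like cells 2 of 11 members passed (background 4.70%). SFRP1 was higher in cattle-yak (105 against 44.8 CPM, log2 1.22, 0.76 to 1.72). DKK2 was at 5.43 CPM in cattle-yak and 65.4 CPM in yak (log2 -3.37, -5.25 to -2.32). The 10 genes of the smooth muscle list summed to 348 CPM in arterial EC-like cells of cattle-yak and 861 CPM in yak, and in other EC-like cells to 399 and 2794 CPM, where DKK2 was at 1.40 and 0.81 CPM. JAG2 (log2 -0.19, -0.33 to -0.06) and HEY1 (log2 0.26, -0.16 to 0.67) stayed within 2-fold. In pericyte-like cells 1 of 7 members passed (background 7.98%), again DKK2 (8.70 against 52.3 CPM, log2 -2.46, -4.51 to -1.16). There the smooth muscle list summed to 3398 and 14017 CPM. The part of muscle RNA in these DKK2 values was not tested.

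**Figure D5:**
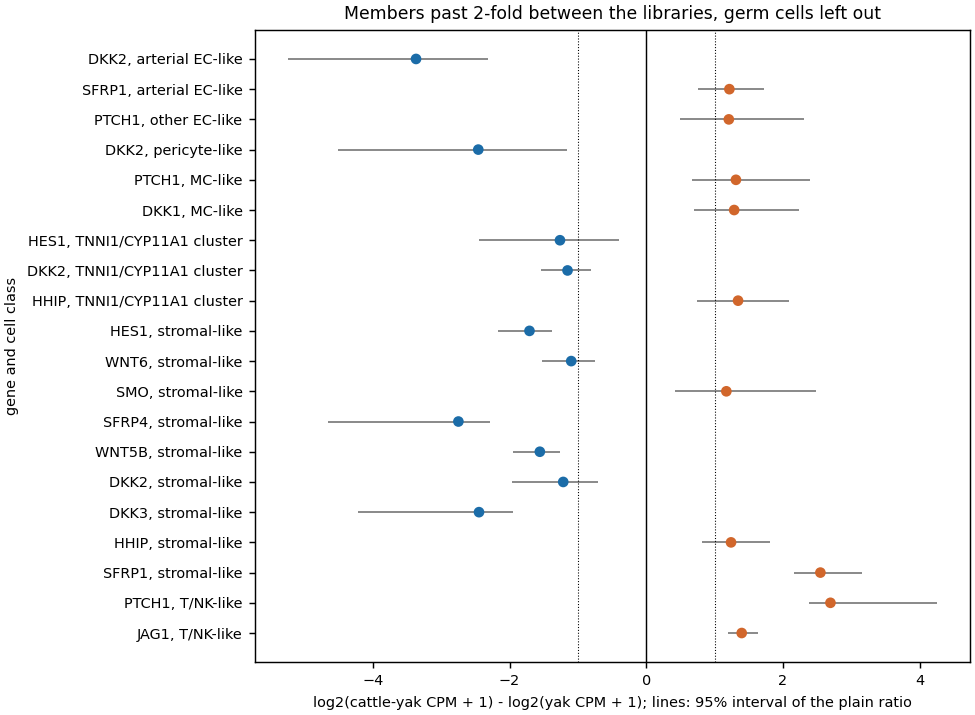
Log2 ratio of cattle-yak over yak (horizontal axis, 1 CPM added) for the 20 pairs of member and class past 2-fold outside germ cells (vertical axis), with lines for the 95% interval of the plain ratio and dotted lines at 2-fold. DKK2 lies on the yak side in 4 classes, and PTCH1 and HHIP on the cattle-yak side wherever they passed.

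In MC-like cells 2 of 12 members passed (background 5.18%), both higher in cattle-yak, DKK1 at 14.7 against 5.44 CPM (log2 1.29, 0.70 to 2.23) and PTCH1 at 12.3 against 4.35 CPM (log2 1.31, 0.68 to 2.40). PTCH1 was also the member that passed in other EC-like cells (1 of 9, background 6.64%), at 11.9 against 4.60 CPM (log2 1.21, 0.50 to 2.31). That ratio was below 2-fold under 6 alternatives. In T/NK-like cells 2 of 7 passed (background 10.8%), JAG1 as given above and PTCH1 at 16.5 against 1.71 CPM (log2 2.69, 2.38 to 4.26). The stromal marker list summed to 237 CPM in T/NK-like cells of cattle-yak and 46.8 CPM in yak. The T/NK-like cells of cattle-yak included the cluster of 54 cells with some stromal genes. The part of free stromal RNA, or of such mixed cells, in the PTCH1 values outside stromal cells was not tested. With the top 10% of doublet scores left out, the log2 ratio of PTCH1 was 0.10 in MC-like and 0.95 in T/NK-like cells. That of JAG1 in T/NK-like cells was 0.46 with cells of a mitochondrial share of 20% or more left out. No member passed among the 6 in lymphatic EC-like cells (background 9.85%) or the 2 in macrophage-like cells (background 6.92%).

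In germ-like cells 4 of 7 members passed, all lower in cattle-yak, where 32.3% of all genes passed. They were HES1 (0 of 592395 UMIs, where 3 counts would be 5.06 CPM, against 15.9 CPM), DKK2 (5.06 against 26.7 CPM), DKK3 (3.38 against 17.1 CPM) and JAG1 (16.9 against 40.2 CPM). Without the upper limits on genes and UMIs, above which many germ cells lay, DKK3 alone of the 4 remained past 2-fold (log2 -2.11), while HES1 was at -0.61, DKK2 at -0.26 and JAG1 at 0.82, higher in cattle-yak. The cattle-yak class was then a different set, the 66 cells of the SPC-like cluster. The 258 cattle-yak cells led by DMRT1 and SLPI took no germ cell name and stayed out of it. So did the 106 yak cells of the CRABP1 and DMRT1 cluster that lay above the limits. With the limits, the yak class pools cells from spermatogonia to spermatids and the cattle-yak class 108 cells with SYCP3 and UCHL1, so stage and library cannot be told apart here. The yak class also includes the 84 cells typed as SSC, with DKK2 at 307 CPM, JAG1 at 189 CPM and PECAM1 at 1182 CPM. In the cattle-yak class PECAM1 was at 13.5 CPM. MYH11 was at 1265 CPM in yak SPG and at 62.5 CPM in the cattle-yak class. The part of endothelial and muscle RNA in these ratios was not tested. JAG2 was at 154 CPM in germ-like cells of cattle-yak.

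The remaining 27 members stayed under 50 counts in the kept cells of both libraries, with at most 45 in yak and 21 in cattle-yak. Besides DLL3, WNT3A, DHH and IHH they were the receptors FZD5, FZD8, FZD9 and FZD10, the targets HES2, HES3, HES5 and HES7, the inhibitors DKK4 and SFRP5, and the ligands WNT1, WNT2, WNT3, WNT4, WNT7A, WNT7B, WNT8A, WNT8B, WNT9A, WNT9B, WNT10A, WNT10B and WNT16. HES3, HES5, WNT8A and WNT8B had no count in any deposited cell of either library.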

How the data were processed

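The authors deposited, for each library, raw UMI counts for each gene in each barcode, the unmodified output of Cell Ranger. The file headers name version 5.0.0, the submitters' processing notes 2.1.1 and the methods another release. Reads were mapped to BosGru3.0. Cells were kept within 2 SD of the mean number of genes and UMIs and below a mitochondrial share of 30%, the study's limits, which left more yak cells than the study kept. Each library was clustered alone (scanpy 1.11.5, igraph 0.11.9, Leiden resolution 1, 2000 variable genes, 30 components). A cluster was named where at least 3 listed markers were enriched. EC-like and pericyte-like clusters were split further (resolution 0.3) and the cattle-yak TNNI1/CYP11A1 cluster was matched by leading genes, both after seeing the data. Rebuilt names may differ from the study's. Germ types of yak cells came from the study's barcode table and replaced the cluster name of those cells. Doublets were not removed. Scrublet called 0 of 11991 yak cells, so it had not worked, and 251 of 8930 cattle-yak cells.

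Counts were summed per class and scaled to CPM (numpy 2.4.6, scipy 1.17.1). Classes with at least 50 cells were compared, with exact Poisson, binomial and conditional intervals. The fold rules were tested on simulated data. Members, marker lists and other pathway genes were chosen with earlier results of these data known. Members with at least 50 counts in either library and those past 2-fold between libraries were named with values. Other pathway genes were named among the 3 largest ratios of a class. The values of 1 member are not reported here, although it is included in the counts of members.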

Additional observations from a re-analysis of the deposited data

Results flagged for a closer look

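JAG1 differed in direction between classes. The log2 ratio of cattle-yak over yak was 1.40 in T/NK-like cells and -1.20 in germ-like cells, and the difference between these classes was not tested. The germ-like value is that of classes made of different stages, and the yak class includes the cells typed as SSC that held endothelial genes. It became 0.82 without upper limits on genes and UMIs, where the cattle-yak class was a different set of 66 cells.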

How the results depend on the processing

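There was 1 library of each kind, so intervals cover counting error only, and animal, preparation and library cannot be told apart. No paired analysis was possible because each group held 1 sample. The pairs NOTCH4 with DLL4 and DLL4 with HEY1 were not run, since no feature bore the symbol DLL4, and promoter motifs were not searched.

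The 24 pairs of member and class past 2-fold between the libraries became 41 at a minimum of 20 counts, 123 with no minimum, 9 at a minimum of 100 counts and 9 at a 4-fold limit. The share of these pairs higher in cattle-yak was 41.7%, and ranged from 22.2% (2 of 9) at the 4-fold limit to 56.0% with mitochondrial and ribosomal RNA left out of the scaling. At 4-fold, 20 cattle-yak members were enriched in some class in place of 34. The share of arterial EC-like cells with a JAG2 UMI depended on the thinning, at 31.4%, 69.6% and 85.2% in yak for 500 UMIs, 2000 UMIs and no thinning, and 26.7%, 62.8% and 78.5% in cattle-yak. Apart from these, the alternatives kept the 4 counts within 1.5 times, including leaving the EC-like and pericyte-like clusters whole and counting the ICAM5 cluster as stromal-like, both chosen after seeing the data.

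Of 431 values followed for 40 ratios, 398 stayed on their side of 2-fold, 31 dropped below it and 2 reversed. The 40 were the ratios past 2-fold between the libraries and some ratios of a class to the other cells of its library. All values that dropped or reversed were ratios between the libraries. Without upper limits on genes and UMIs, JAG1 in germ-like cells became 0.82, and DKK2 and HES1 there fell short of 2-fold at -0.26 and -0.61. The cattle-yak germ-like class was a different set of 66 cells under that setting. HES1 in the TNNI1/CYP11A1 cluster became 0.29 at a mitochondrial share under 20%. The cause was not tested. PTCH1 in MC-like cells fell to 0.10 and in T/NK-like cells to 0.95 without the top 10% of Scrublet scores, and JAG1 in T/NK-like cells to 0.46 at a mitochondrial share under 20%. DKK2 in pericyte-like cells was -0.99 without upper limits.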
